A study of Mus musculus with 4 samples.

Results

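With 1 exception, the genes described here encode the proteasome, its regulatory particles and its assembly chaperones. They were measured in newborn mouse hearts with and without the transcriptional coactivators MRTFA and MRTFB. The exception, Psmc3ip, shares only the prefix of their names. All were taken by name: protein-coding mouse genes whose symbol starts with Psma, Psmb, Psmc, Psmd, Psme or Psmg, other than Psmb8 and Psmb9. Of the 43346 gene identifiers in the deposited files, 47 met that rule, and 46 of these held enough reads to enter the test of 16009 genes. The remaining member, Psmb11, had 0 counts in 3 libraries and 1 count in wild type library 2. The rule used no measured value, although it was written with earlier results of these data known.

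The series holds 4 RNA sequencing libraries of whole heart at postnatal day 0, with 2 from wild type mice on an ICR background and 2 from MRTFA/B double knockout mice on a mixed background. Genotype and strain background therefore cannot be told apart. The labels do not say how the alleles were made, which cells lost them, or whether each library is a separate animal, so p-values here reflect only how far these libraries differ, and part of that may be technical. MRTFA and MRTFB carry signals from the actin cytoskeleton to serum response factor (SRF), which binds a DNA element called the CArG box. Total counts ran from 16175259 in double knockout library 2 to 29460641 in wild type library 1. Mitochondrially encoded genes held 12.6% and 13.5% of counts (wild type) against 11.5% and 11.4% (double knockout). CPM is a read count relative to library size, scaled by the TMM method, which adjusts library totals for differences in composition. All 8 cardiomyocyte markers were tested and summed to 48338.5 and 48388.6 CPM (wild type) against 45496.6 and 41348.5 CPM (double knockout). Of these markers, 6 had a negative and 2 a positive fold change. The 8 lymphocyte markers, all below the filter, summed to 1.04 to 1.69 CPM. All 7 smooth muscle markers had a negative fold change, with sums of 3649 and 2177 CPM (wild type) against 1080 and 950.1 CPM (double knockout). The part of the cardiomyocyte and smooth muscle shifts in the values below was not tested. Mrtfa was at 9.06 and 11.1 CPM (wild type) against 3.35 and 2.26 CPM (double knockout), and Mrtfb at 46.9 and 56.8 against 45.99 and 49.6 CPM. The log2 fold change of Mrtfa was -1.82 (edgeR adjusted p = 0.120, DESeq2 adjusted p = 1.25e-05) and that of Mrtfb -0.12 (edgeR adjusted p = 0.690). The position of the deletions is not given in the labels, so these levels need not measure the deleted parts.

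The proteasome degrades proteins marked with ubiquitin. Its barrel-shaped 20S core is built from rings of alpha subunits, which gate the entrance, and rings of beta subunits, some of which cut peptide bonds. A 19S cap on the barrel recognises ubiquitin, removes it, and uses a ring of ATPases to unfold the substrate and push it in. The transcription factor NFE2L1 (also called NRF1) raises the transcription of proteasome genes when proteasome activity falls short. In heart muscle the system clears damaged and surplus sarcomere proteins.

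Promoter sequences are shown first, because the study removed coactivators of a DNA-binding factor and the question for each member is whether such elements lie near its start. RefSeq promoter windows on GRCm38.p6, the build named mm10 in the submitters' notes, were at hand for 39 of the 47 members, in 42 windows of 300 bases that run from 250 bases before to 50 after a start. The members without one were Psma8, Psmb1, Psmb2, Psmb7, Psmc3, Psmd3, Psmd7 and Psmg2. Both strands were searched. A CArG box was found in 1 of the 42 windows (2.38%), against 1.63% of all 32851 windows. It is a window of Psma6, a gene with more than 1 window, and the match belongs to only 1 of its starts, the one printed below. The sequence TGACNNNGC, the core of the antioxidant-type element that NFE2L1 can bind, was found in 6 windows (14.3%), against 12.4% of all. CCGGAAG, a core that ETS family factors can bind, was in 16 windows (38.1%) against 8.86% of all, and CCAAT in 14 (33.3%) against 37.4%. The CArG match in Psma6 overlaps a CCAAT match on the other strand. A match is a string of letters and not a measured site. The 150 bases before the start are given for Psma6, for 2 catalytic subunits with TGACNNNGC, and for Psmd4 and Psme3, which carry CCGGAAG and whose fold changes lay in opposite directions. Capitals mark the named motif.
Psma6, CArG box, chr12:55384072-55384221, plus strand: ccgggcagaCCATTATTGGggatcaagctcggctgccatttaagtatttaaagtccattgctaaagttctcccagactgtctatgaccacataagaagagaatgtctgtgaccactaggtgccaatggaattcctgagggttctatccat
Psmb5, TGACNNNGC, chr14:54617996-54618145, minus strand: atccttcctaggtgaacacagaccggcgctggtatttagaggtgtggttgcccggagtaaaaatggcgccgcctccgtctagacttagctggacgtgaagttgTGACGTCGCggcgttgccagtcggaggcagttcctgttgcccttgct
Psmb6, TGACNNNGC, chr11:70525207-70525356, plus strand: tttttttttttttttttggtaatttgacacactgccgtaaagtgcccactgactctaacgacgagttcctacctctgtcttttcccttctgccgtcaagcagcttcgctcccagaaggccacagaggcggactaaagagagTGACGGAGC
Psmd4, CCGGAAG, chr3:95042615-95042764, minus strand: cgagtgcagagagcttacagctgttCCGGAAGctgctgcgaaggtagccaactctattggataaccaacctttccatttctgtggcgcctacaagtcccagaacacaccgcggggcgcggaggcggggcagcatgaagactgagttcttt
Psme3, CCGGAAG, chr11:101316063-101316212, plus strand: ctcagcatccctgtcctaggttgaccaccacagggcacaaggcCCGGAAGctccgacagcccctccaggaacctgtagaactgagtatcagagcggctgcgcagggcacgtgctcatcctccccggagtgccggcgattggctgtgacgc

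None of the 46 tested members passed the threshold between double knockout and wild type hearts. The edgeR quasi-likelihood test with Benjamini-Hochberg adjustment over all genes (adjusted p under 0.05) called 0 of 46, where it called 0.075% of all genes tested (0.0125% higher and 0.0625% lower). DESeq2 also called 0 members, against 3.93% of the genes it tested, and limma-voom called 0, against 0.0687%. At an unadjusted edgeR p under 0.05 stood 3 members, Psmb10 and Psme3 on the lower side and Psmd4 on the higher side, which is 6.52% of the members against 17.3% of all genes (8.7% higher and 8.63% lower). With no filter on low counts edgeR called 0 members and 6.07% of all genes. The fold changes, on the log2 scale and double knockout against wild type, lay between -0.49 (Psmc3ip) and 0.44 (Psma8). Their median was -0.07 and their SD across members 0.19. Over all genes tested the median was 0.01 and the SD 0.54.

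For most members the fit put narrow bounds on the difference between these libraries. An approximate 95% interval from the edgeR fit lay wholly within a 1.5-fold change in either direction for 36 of the 46 members, against 36.4% of all genes. Those with a mean of at least 10 CPM gave 36 of 40 members, against 57.8% of all genes at that level. The interval reached past 1.5-fold for the other 10. Psma5, Psma8, Psmg3, Psmg4, Psme2 and Psmc3ip were at under 10 CPM, and Psmb10, Psme3, Psmc1 and Psmd4 were better covered. The median interval width was 0.58 in the members and 0.68 in all genes with at least 10 CPM.

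**Figure D1:**
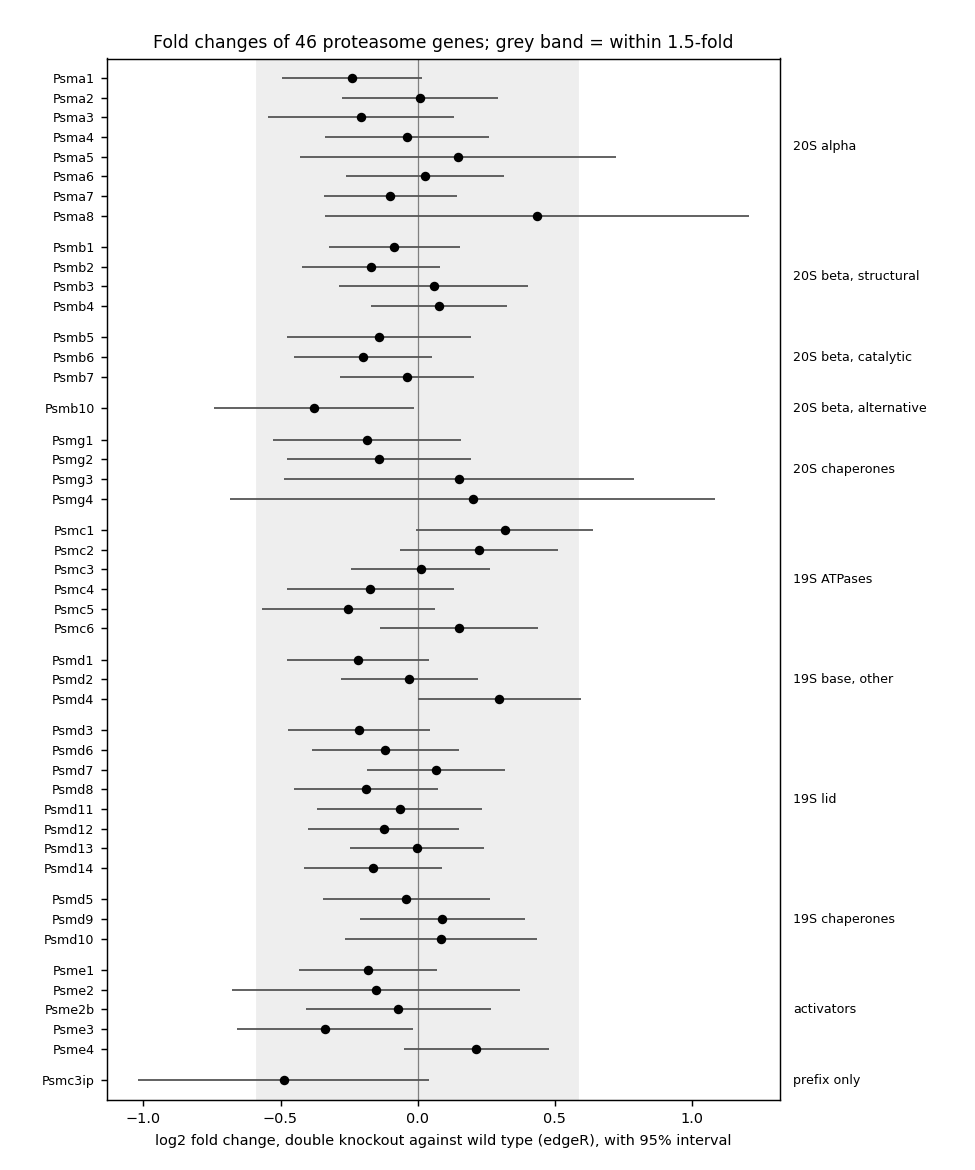
Fold change of each tested proteasome gene on the log2 scale (horizontal axis), double knockout against wild type, with its approximate 95% interval from the edgeR fit as a bar, grouped by role. The intervals of 36 of the 46 genes sit inside the grey band, which marks a change of up to 1.5-fold in either direction.

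The number of members with a positive fold change depended on how libraries were scaled. Scaling shifted the medians of the members and of all genes by a similar amount. With TMM scaling 17 members had a positive and 29 a negative fold change, where 51.3% of all genes were positive, but with library totals alone 24 of 46 were positive, where 60.2% of all genes were, and the members' median was 0.0031 in place of -0.07. The median of all genes moved with it, from 0.01 to 0.08, so that the members' median lay below that of all genes by a difference of -0.078 with TMM scaling and -0.077 with library totals alone. The double knockout pair lay wholly above the wild type pair for 9 members (19.6%, against 25.8% of all genes) and wholly below for 19 (41.3%, against 25.2%). With library totals alone these counts were 16 (against 33.3%) and 12 (against 18.9%). In either direction, 28 members did not overlap, against 51.1% of all genes. Across members, the median of the log2 CPM relative to the wild type mean was -0.07 in double knockout library 1 and -0.08 in library 2. The pooled share of all counts that fell on the 47 members was 0.363% in each wild type library, 0.372% in double knockout library 1 and 0.374% in library 2.

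**Figure D2:**
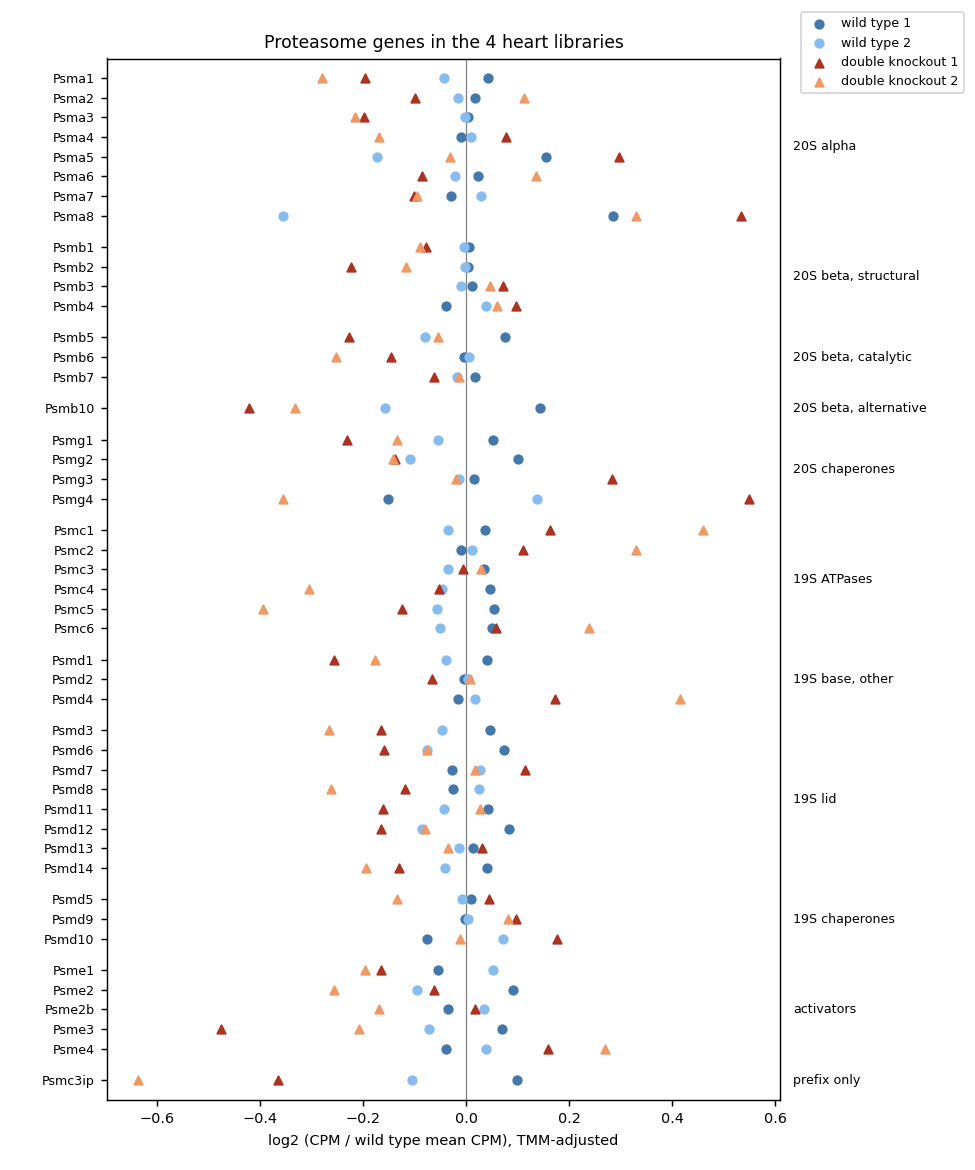
Level of each tested proteasome gene in each library as log2 of its TMM-adjusted CPM over the wild type mean (horizontal axis), grouped by role. Circles are the wild type libraries and triangles the double knockout libraries; 28 of the 46 genes have groups that do not overlap, 9 with the triangles to the right and 19 to the left.

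The alpha subunits form the outer rings of the core. Fold changes were positive for 4 of the 8 genes and negative for 4, and their median was -0.02. Psma1 was at 151.8 and 143.1 CPM (wild type) against 128.6 and 121.3 CPM (double knockout). Both knockout values were below both wild type values, with a log2 fold change of -0.24 and SE of 0.10 (edgeR adjusted p = 0.316). Psma6 (ENSMUSG00000021024), with the CArG match printed above in 1 of its promoter windows, was at 110.1 and 106.8 CPM (wild type) against 102 and 119 CPM (double knockout). Its groups overlapped, with a log2 fold change of 0.03 and SE of 0.12 (edgeR adjusted p = 0.926), and its direction turned when library 2 of wild type (-0.0078) or of double knockout (-0.09) was left out. Psma2, Psma4 and Psma7 had log2 fold changes from -0.10 to 0.0090. Psma8, the alternative subunit of the germ line that takes the place of Psma7, was read at only 2.26 and 1.45 CPM (wild type) against 2.68 and 2.32 CPM (double knockout) (log2 fold change 0.44, SE 0.32; edgeR adjusted p = 0.521). Per length, Psma8 was at 1.72% to 3.49% of the level of Psma7 in the 4 libraries on merged exons, and at 0.755% to 1.53% on the principal transcript.

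The beta subunits form the inner rings. The 4 that do not cut, Psmb1 to Psmb4, spanned log2 fold changes from -0.17 for Psmb2 to 0.08 for Psmb4. Psmb2 was at 93.5 and 93.1 CPM (wild type) against 79.9 and 86.1 CPM (double knockout), so the knockout libraries lay lower (SE 0.10; edgeR adjusted p = 0.442). Psmb4 lay the other way, at 75.6 and 79.9 CPM (wild type) against 83.2 and 81.1 CPM (double knockout) (SE 0.10; edgeR adjusted p = 0.727). The groups did not overlap in either gene.

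The catalytic subunits are Psmb6, with caspase-like activity, Psmb7, with trypsin-like activity, and Psmb5, with chymotrypsin-like activity. All 3 had negative fold changes with TMM scaling. Psmb6 was at 76.4 and 76.9 CPM (wild type) against 69.2 and 64.4 CPM (double knockout), with no overlap (log2 fold change -0.20, SE 0.10; edgeR adjusted p = 0.381). Psmb5 was at 30.7, 27.5, 24.8 and 28.02 CPM and Psmb7 at 106.9, 104.3, 101.1 and 104.6 CPM, in the order wild type 1 and 2, double knockout 1 and 2. The groups of both overlapped. In TMM-scaled CPM the 3 catalytic genes summed to 214.0 and 208.8 (wild type) against 195.2 and 197.0 (double knockout). Sums per length are given as TPM (reads per kilobase, scaled to the same total in each library), which does not use TMM. By that measure the 3 genes held 309.7 to 316.8 TPM in the 4 libraries on merged exons, and 490.6 to 497.4 TPM on the principal transcript.

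Psmb10 encodes the subunit that replaces Psmb7 in the immunoproteasome, a form that interferon gamma induces and that leukocytes carry. It was at 35.7 and 29.0 CPM (wild type) against 24.2 and 25.7 CPM (double knockout). Both knockout libraries lay below both wild type libraries, at 32.4 ± 4.75 against 24.9 ± 1.09 CPM (mean ± SD, n = 2 per group). The log2 fold change of -0.38 (SE 0.15) had the most negative value among the core and alternative subunits and did not pass (edgeR adjusted p = 0.276, DESeq2 adjusted p = 0.381). Per length, Psmb10 was at 67.1% and 55.8% of the level of Psmb7 in wild type and at 47.9% and 49.3% in double knockout, on the length of all merged exons. On the length of the principal transcript these shares were 29.6% and 24.6% against 21.1% and 21.7%. Psmb8 and Psmb9, its partners in the immunoproteasome and not members here, were at 0.211 to 0.599 CPM in all 4 libraries. The 10 macrophage and leukocyte markers summed to 95.7 and 93.3 CPM (wild type) against 119.4 and 97.5 CPM (double knockout), with none at 0. The 10 interferon gamma response genes summed to 43.4 and 51.6 against 58.1 and 46.7 CPM. Their part in the Psmb10 level was not tested. In bulk tissue, fewer cells of a type and less RNA per cell cannot be told apart. Psmb11, the thymic beta subunit, had 1 count in all, below the floor of 3 counts per library, which corresponds to 0.106 to 0.184 CPM.

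The ATPases of the 19S cap, Psmc1 to Psmc6, form the ring that unfolds substrates, and their fold changes went in both directions. The double knockout pair lay wholly above the wild type pair for 3 of the 6, Psmc1, Psmc2 and Psmc6. It lay wholly below for 2, Psmc4 and Psmc5. Over all genes, 25.8% lay above and 25.2% below. Psmc6 was separated only by 228.5 CPM in double knockout library 1 against 227.1 CPM in wild type library 1. Psmc1 (ENSMUSG00000021178, chromosome 12, 100110154 to 100123405) was at 91.6 and 87.2 CPM (wild type) against 100.1 and 122.8 CPM (double knockout). Its ratio of means was 1.25, and its log2 fold change of 0.32 and SE of 0.13 (edgeR adjusted p = 0.294) was the most positive among the core subunits. Psmc2 was at 131.0 and 133.0 CPM (wild type) against 142 and 166 CPM (double knockout), a log2 fold change of 0.22. Psmc5 (chromosome 11, 106256154 to 106263120) lay the other way, at 109.4 and 101.3 CPM (wild type) against 96.6 and 80.1 CPM (double knockout) (log2 fold change -0.25, SE 0.13; edgeR adjusted p = 0.375). In Psmc1, Psmc2, Psmc4, Psmc5 and Psmc6 double knockout library 2, the shallowest, lay farther from wild type than library 1. Psmc3, the ATPase with the highest level per length, was at 231.1, 220.3, 224.8 and 230.3 CPM and did not separate the groups (log2 fold change 0.01, SE 0.10; edgeR adjusted p = 0.967). The ATPases are present in equal numbers in the assembled cap.

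The other members in the base are the scaffolds Psmd1 and Psmd2 and the ubiquitin receptor Psmd4. Psmd4 (ENSMUSG00000005625, chromosome 3, 95032694 to 95042614), which carries CCGGAAG in the promoter printed above, was at 88.9 and 90.98 CPM (wild type) against 101.3 and 120.0 CPM (double knockout). Both knockout libraries lay higher, with a log2 fold change of 0.30 and SE of 0.12 (edgeR adjusted p = 0.287, DESeq2 adjusted p = 0.436). Psmd1 was lower in both, at 210.2 and 198.9 against 171.1 and 180.8 CPM (log2 fold change -0.22, SE 0.11; edgeR adjusted p = 0.356). Psmd2 was at 165.2, 166.0, 158.1 and 166.3 CPM, with overlapping groups. It is the only member within 10 Mb of a targeted gene, at 7.23 Mb from Mrtfb on chromosome 16, where linked DNA of another strain and the genotype cannot be told apart.

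The lid removes ubiquitin through its enzyme Psmd14 and holds that enzyme in place with further subunits, 7 of which are members here. Of the 8 members in the lid, 7 were negative with TMM scaling (median fold change -0.12), and 4 had both knockout libraries below both wild type libraries, as did 25.2% of all genes. Of these 4, Psmd6 was separated only by 93.79 against 93.78 CPM. Psmd3 was at 82.9 and 77.6 CPM (wild type) against 71.5 and 66.7 CPM (double knockout) (log2 fold change -0.21, SE 0.11; edgeR adjusted p = 0.361). Psmd14 itself was at 87.9 and 82.9 against 78.0 and 74.6 CPM, also without overlap (log2 fold change -0.16, SE 0.10; edgeR adjusted p = 0.460). Psmd7, which pairs with Psmd14, was at 110.6 and 114.8 CPM (wild type) against 122.0 and 114.0 CPM (double knockout), with overlap (log2 fold change 0.07, SE 0.10; edgeR adjusted p = 0.780). Psmd13 had the smallest fold change of the lid, -0.0024.

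Leaving out a library changed which members were called. Without double knockout library 1, edgeR called 3 members, Psmc1 (log2 fold change 0.46, adjusted p = 0.0144), Psmd4 (0.41, adjusted p = 0.0233) and Psmc5 (-0.40, adjusted p = 0.0361), where it called 17.1% of all genes. Without double knockout library 2 it called 1 member, Psme3 (-0.48, adjusted p = 0.0280), where it called 8.24% of all genes. Each of these fits leaves 1 library in the double knockout group and assumes that it varies like the wild type pair. Without wild type library 1 or 2 no member was called, where 0.0121% and 0.018% of all genes were.

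Proteasome activators open the gate of the barrel without ubiquitin. Psme1 and Psme2 together form the interferon-inducible activator, Psme3 forms the nuclear one, and Psme4 is a single large protein with roles in the nucleus and in chromatin. Psme3 (ENSMUSG00000078652, chromosome 11, 101316213 to 101323537), whose promoter is printed above, was at 86.5 and 78.4 CPM (wild type) against 59.3 and 71.4 CPM (double knockout). The knockout libraries lay lower, at a log2 fold change of -0.34 and SE of 0.13 (edgeR adjusted p = 0.274, DESeq2 adjusted p = 0.384). Psme4 lay the other way, at 205.9 and 217.1 CPM (wild type) against 236 and 255 CPM (double knockout) (log2 fold change 0.21, SE 0.11; edgeR adjusted p = 0.371). Psme1 (chromosome 14, 55578123 to 55581529) was at 94.2 and 101.4 against 87.2 and 85.3 CPM, with the knockout libraries lower (log2 fold change -0.18, SE 0.10; edgeR adjusted p = 0.418). The gene of its partner Psme2 lies close by on the same chromosome, at 55587441 to 55591113.

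Assembly chaperones bind single subunits until a ring is complete and then leave. For the cap these are Psmd5, Psmd9 and Psmd10. Psmd9 was at 22.7 and 22.8 CPM (wild type) against 24.4 and 24.1 CPM (double knockout), a log2 fold change of 0.09. Psmd10 was at 19.9, 22.1, 23.7 and 20.8 CPM and Psmd5 at 34.5, 34.1, 35.4 and 31.3 CPM, both with overlapping groups. For the core they are Psmg1 to Psmg4. Psmg1 was at 18.6 and 17.3 against 15.3 and 16.3 CPM (log2 fold change -0.18, SE 0.14; edgeR adjusted p = 0.540), and Psmg2 at 25.9 and 22.4 against 21.97 and 21.9 CPM (log2 fold change -0.14, SE 0.14; edgeR adjusted p = 0.639). Both lay lower in the knockout libraries. Psmg3 and Psmg4 were at 1.71 to 3.21 CPM, and their counts of 28 to 91 per library leave wide intervals: that of Psmg4 ran from -0.68 to 1.09. Psmc3ip shares its prefix for historical reasons and acts in meiotic recombination. It was at 6.52 and 5.67 CPM (wild type) against 4.73 and 3.92 CPM (double knockout) (log2 fold change -0.49, SE 0.22; edgeR adjusted p = 0.321), the most negative value of all members.

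The assembled particle holds its core subunits in equal numbers, so their levels were compared per length. As a mean over the 4 libraries, the 31 core genes had a median of 107 TPM. The highest were Psma6 at 281 TPM, Psmc3 at 275 TPM and Psmb2 at 231 TPM. The lowest were Psma3 at 12.4, Psma5 at 12.5, Psmb3 at 19.9 and Psmd11 at 21.3 TPM, followed by Psmd3 at 47.5 TPM. The 4 lowest stood apart in all 4 libraries. Levels divided by the principal transcript in place of all merged exons gave a median of 154 TPM. On that length Psma7 was at 252 TPM in place of 101 and Psmb7 at 211 in place of 96.5, while the 4 low genes were at 12.6 TPM for Psma3, 9.86 for Psma5, 44.4 for Psmb3 and 35.4 for Psmd11. The order thus depends on the length used, at the top as well: on the principal transcript Psmc3 (325 TPM), Psma1 (265, in place of 146) and Psma7 stood above Psma6 (247). Summed over core subunits, the 19S genes were at 1.46 and 1.42 times the 20S genes in wild type and at 1.52 and 1.499 times in double knockout, in TPM on merged exons, and at 1.28, 1.25, 1.33 and 1.35 times on the principal transcript.

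**Figure D3:**
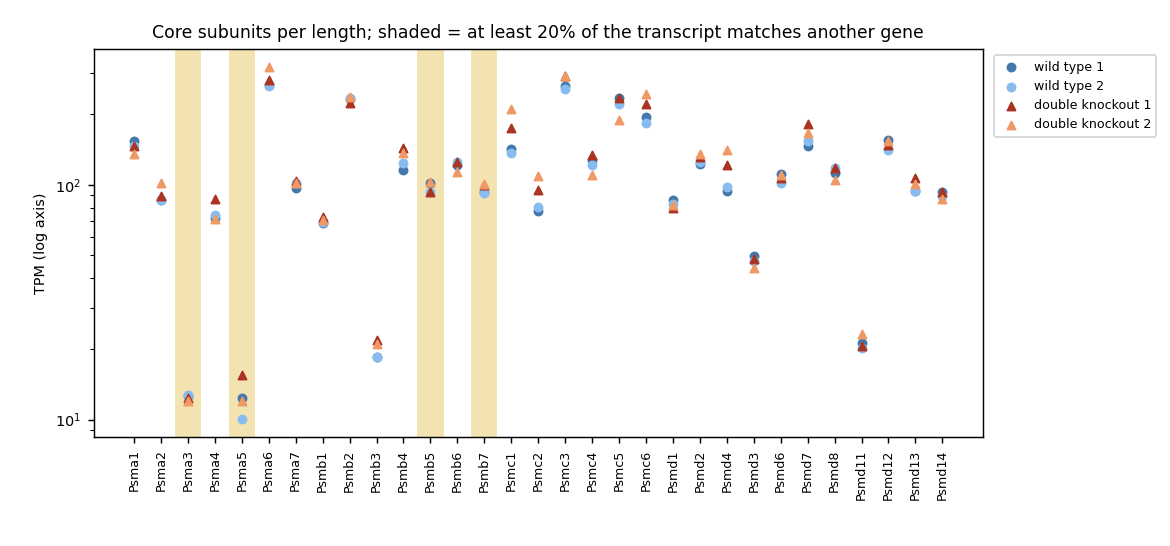
Level per length of the 31 core subunits in each library, in TPM on a log axis, with circles for wild type and triangles for double knockout. Shading marks genes with at least 20% of the principal transcript matching another annotated gene at 98% identity; Psma3, Psma5, Psmb3 and Psmd11 sit lowest, between 10.05 and 23.1 TPM.

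Several members share sequence with another gene, which bears on how reads were assigned to them. Of the 31 core genes, 10 shared at least 300 bases at 95% identity or more with another annotated transcript, and these were at 12.4 to 165 TPM (median 79.5), while the 21 without were at 47.5 to 281 TPM (median 121). Psma3, Psma5, Psmb3 and Psmd11 were all among the 10. A stricter measure was 20% or more of the principal transcript matching at 98% identity. By it, 4 core genes were at 12.4 to 97.5 TPM (median 54.5) and 27 were at 19.9 to 281 TPM (median 114). Psmb3 and Psmd11 were among the 27, with 0.0% matching. The copies of Psmd11 held 0 and 437 counts against 4186 for the gene. Those of Psmb3 with deposited counts held 942 and 4 against 1416. Psma3 is identical over 665 bases to Gm13835, annotated as a processed pseudogene, which held 6118 counts over the 4 libraries against 1512 for Psma3. Psma5 aligns to the processed pseudogene Gm8394 over 948 bases with 9 mismatches, and the pseudogene held 1642 counts against 516. Psme2 aligns to Psme2b, annotated as a protein-coding gene on chromosome 11, over 794 bases with 5 mismatches, and Psme2b held 2096 counts against 462. The sources used here do not state the treatment of reads with several matches, and the part of these matches in the levels was not tested. For Psme2 with Psme2b, Psma5 with Gm8394 and Psma3 with Gm13835, a stretch is printed to show how few bases tell the genes apart. The position is counted from 1 at the start of the stretch, with the member's base first, and capitals mark the bases that differ. In Psme2 against Psme2b they are C36T, C66T and C90T, and in Psma5 against Gm8394 they are C19T, G49A and T90C. The Psma3 stretch is the same in Gm13835.
Psme2, coding bases 454 to 543: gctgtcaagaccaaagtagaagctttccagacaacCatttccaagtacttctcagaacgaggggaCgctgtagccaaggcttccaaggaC
Psme2b: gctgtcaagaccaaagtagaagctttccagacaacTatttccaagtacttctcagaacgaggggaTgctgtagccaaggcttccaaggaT
Psma5, coding bases 586 to 675: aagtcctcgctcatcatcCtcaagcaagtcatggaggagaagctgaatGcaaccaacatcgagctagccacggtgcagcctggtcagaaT
Gm8394: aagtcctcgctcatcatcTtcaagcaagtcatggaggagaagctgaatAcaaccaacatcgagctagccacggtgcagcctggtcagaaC
Psma3 and Gm13835, coding bases 104 to 163 of Psma3: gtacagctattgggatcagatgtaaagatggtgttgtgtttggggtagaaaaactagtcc

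The counts of each printed pair were also added, so that the level does not depend on how the counted reads were divided within the pair. Any reads left uncounted are not restored by this. Psma5 also matches the processed pseudogene Gm12989 at 97.5% over 734 bases, and its 869 counts were not added. Psma3 alone was at 16.5 and 16.4 CPM (wild type) against 14.3 and 14.1 CPM (double knockout), with no overlap (log2 fold change -0.21, SE 0.14; edgeR adjusted p = 0.487). With Gm13835 added the levels were 79.4 and 78.8 against 77.1 and 75.1 CPM, a log2 ratio of means of -0.06, so the knockout libraries were still lower but by less. Psma5 with Gm8394 was at 20.9 and 21.2 CPM (wild type) against 23.9 and 21.9 CPM (double knockout), a log2 ratio of 0.12; these sums did not overlap, whereas the levels of Psma5 alone did. Psme2 with Psme2b was at 26.4, 26.8, 26.7 and 23.4 CPM, a log2 ratio of -0.09. The share of the pair's counts on Psma3 was 20.7% and 20.8% in wild type and 18.6% and 18.8% in double knockout, so it was lower in both knockout libraries. The share was 20.6% to 26.3% for Psma5 and 17.1% to 19.7% for Psme2, with overlapping groups. Other members with 20% or more of the principal transcript matching another gene at 98% identity were Psmb5, Psmb7, Psmc3ip, Psme2b and Psmg3. Part of the match of Psmb7 is an overlap with its neighbour Nek6, and that of Psmc3ip is one with Mlx, so their levels are uncertain too.

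Other proteins of the same system were read from lists written for this purpose, and edgeR called 0 genes in each of the 9 lists. Proteasome proteins with other names, such as the ubiquitin receptor Adrm1 and the assembly factor Pomp, had 6 positive and 5 negative fold changes in 11 tested genes, with a median of 0.0040. The most abundant were Ecpas, a proteasome adaptor (232.9, 212.1, 218.5 and 227.8 CPM, in the order wild type 1 and 2, double knockout 1 and 2), and Zfand5, an activator (142.3, 130.2, 142.5 and 180.7 CPM). Pomp, which matures the 20S core, was at 48.9 and 47.5 CPM (wild type) against 45.6 and 41.6 CPM (double knockout), with the knockout libraries lower (log2 fold change -0.14, SE 0.11; edgeR adjusted p = 0.553). Nfe2l1, the factor that raises proteasome genes, was at 291 and 321 CPM (wild type) against 309.5 and 309.6 CPM (double knockout), with overlap (log2 fold change 0.02, SE 0.11; edgeR adjusted p = 0.950). Nfe2l2 (also called NRF2), its relative in the response to oxidants, was at 108.9 and 107.8 CPM (wild type) against 71.0 and 94.5 CPM (double knockout). Both knockout values were lower, with a log2 fold change of -0.39 and SE of 0.15 (edgeR adjusted p = 0.276). In the list of 12 regulators these belong to, 7 were positive, with a median of 0.06. Maff, a small partner of these factors, had the most positive value (1.32), with 7.82, 5.51 and 7.34 CPM in the first 3 libraries and 26.6 CPM in double knockout library 2. Among 11 genes that NFE2L2 is known to drive, 8 were negative, with a median of -0.22. The 2 with the highest CPM were Taldo1 of the pentose phosphate pathway (93.8 and 90.9 against 74.9 and 81.4 CPM) and the thioredoxin reductase Txnrd1 (83.6 and 74.8 against 66.6 and 69.2 CPM), both negative. The 3 positive ones were Gclc, Gclm and Hmox1, with log2 fold changes of 0.0082, 0.32 and 0.42. Gclm was at 36.3 and 39.9 CPM (wild type) against 50.5 and 44.2 CPM (double knockout). Hmox1 was at 9.97 and 10.6 against 15.2 and 12.2 CPM. Neither of these last 2 genes had overlapping groups.

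Ubiquitin genes and the enzymes that activate ubiquitin had 4 positive and 5 negative fold changes, with a median of -0.18. The ubiquitin gene Ubb was at 151.8 and 185.7 CPM (wild type) against 214 and 236 CPM (double knockout) (log2 fold change 0.42, SE 0.14; edgeR adjusted p = 0.222), and the activating enzyme Uba1 at 414.7 and 413 against 348 and 365 CPM (-0.22, SE 0.11; edgeR adjusted p = 0.364). Neither pair of groups overlapped. The shuttle receptor Rad23b was at 211.4 and 197.8 CPM against 174.1 and 192.0 CPM (-0.16, SE 0.11; edgeR adjusted p = 0.505). Among shuttle proteins, the p97 segregase and its cofactors, 8 of 14 were positive, with a median of 0.04. Vcp, the gene of p97, had the most negative value (-0.77; edgeR adjusted p = 0.719). It was at 37.0 and 36.9 CPM in wild type, 37.7 CPM in double knockout library 1 and 4.77 CPM in library 2. Ubxn7, which links p97 to ubiquitin ligases, was at 107.8 and 111.2 CPM (wild type) against 137.8 and 139.0 CPM (double knockout) (log2 fold change 0.34, SE 0.10; edgeR adjusted p = 0.193).

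The COP9 signalosome, a relative of the lid that switches off cullin ligases, had 2 positive and 8 negative fold changes in 10 genes, with a median of -0.13. Cops4 was at 106.9 and 102.4 CPM against 92.8 and 102.1 CPM, a log2 fold change of -0.10. Cops2, one of the positive ones, was at 229.6 and 218.1 CPM (wild type) against 259.8 and 310.4 CPM (double knockout) (log2 fold change 0.35, SE 0.13; edgeR adjusted p = 0.255). The CCT chaperonin, which folds actin and tubulin, had 6 of 8 negative, with a median of -0.11. Its most abundant genes differed in sign, with Tcp1 at -0.17 and Cct2 at 0.13. In the heat shock list DESeq2 called 1 of 11 genes, where it called 3.93% of all genes. This was the cochaperone Stip1, which was lower, at 156.4 and 143.0 CPM (wild type) against 96.3 and 84.7 CPM (double knockout) (log2 fold change -0.73, SE 0.12; edgeR adjusted p = 0.121; DESeq2 adjusted p = 0.00151). The median of that list was -0.03. In the list of muscle ubiquitin ligases DESeq2 called 2 of 9 genes, against the same 3.93% of all genes. It called Fbxo32 (atrogin-1) higher, from 63.3 and 91.7 to 137.5 and 181 CPM, and Asb2 lower, from 343 and 313.9 to 233 and 224.5 CPM (edgeR adjusted p = 0.154 and 0.150). Of the 9 ligases tested, 7 were positive, with a median of 0.09.

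**Figure D4:**
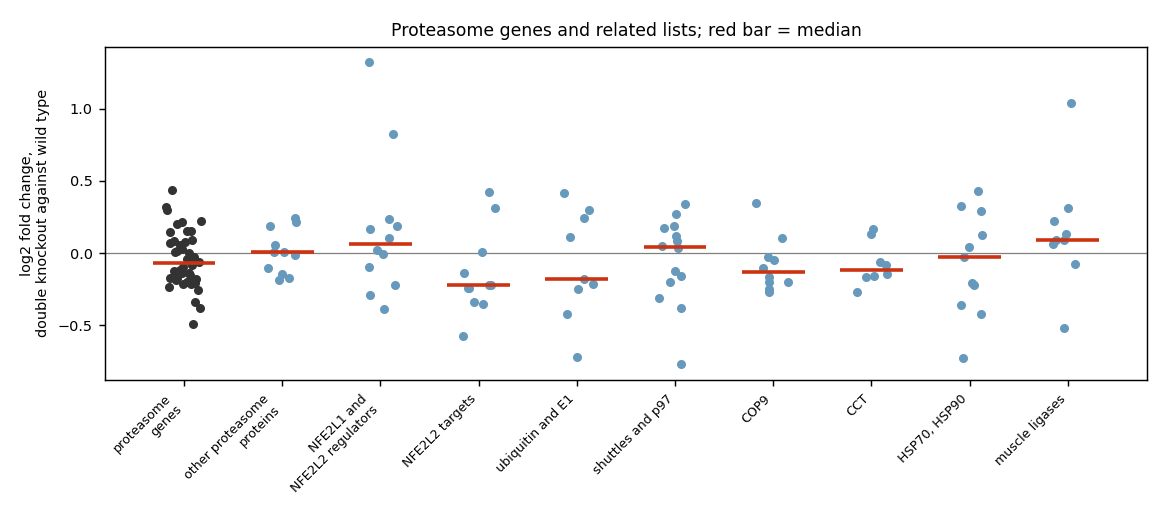
Log2 fold change of each tested gene, double knockout against wild type (vertical axis), for the proteasome genes and 9 lists of related genes, with the median of each as a red bar. The proteasome genes cluster around a median of -0.07, and the highest points are Maff at 1.32 in the regulator list and Fbxo32 at 1.04.

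By pattern across the 4 libraries, the non-member genes closest to the mean of the tested members were Zmpste24, Rassf8, Ush1c, Ranbp3 and Brd7. Likeness was the Euclidean distance between centred log2 CPM profiles, at 0.0112 to 0.0184. The members' mean profile was itself close to flat, at 0.05 and -0.0032 in wild type and -0.0095 and -0.04 in double knockout.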

How the data were processed

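Counts of reads per gene were deposited by the authors, 1 file per library, and the submitters' processing notes name HTSeq, build mm10 and DESeq 1.10.1. Aligner, annotation release and strand setting: not given in the sources used here. Symbols, positions and exon lengths came from GENCODE M21, which matched 42462 of 43346 identifiers. A gene that RefSeq calls Psme3ip1 has another symbol there and was not taken. Genotypes were compared by quasi-likelihood with edgeR 4.0.16, run under R 4.3.3 (filterByExpr, TMM, robust, no covariate), with DESeq2 1.42.0 and limma 3.58.1 as alternatives. Groups followed the labels, and the fit was checked on simulated data. Intervals used the SE and degrees of freedom of the fit and are approximate. CPM and TPM were computed from the counts. TPM used merged exons, and the principal transcript as a choice added after seeing the data. Copies were found with BLAST among GENCODE transcripts.

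The members, roles and lists were chosen with earlier results of these data known. Full values were given by rule for the most positive and most negative member of each role and the one highest per length. In other lists they were given for up to 4 called genes or, where none was called, the 2 with the highest CPM, and for Nfe2l1, Nfe2l2, Pomp, Mrtfa and Mrtfb. Further members, and Maff, Vcp, Gclc, Gclm and Hmox1, were named after their values were seen. Libraries of a pair differed by more than sampling noise (chi-square per gene 16.3 in wild type and 38.3 in double knockout).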

Additional observations from a re-analysis of the deposited data

How the results depend on the processing

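In all, 15 alternatives to the main fit were run, of which the crossed block was added after seeing the data. The count of genes called over the whole table was 12 in the main fit. It was 1514 with no filter, 532 with DESeq2, and 2 to 2795 with 1 library left out. It was 2 with a replicate block and 3 with the crossed replicate block, where same-numbered libraries share only a number (correlation of their deviations -0.10). The blocks called 0 proteasome genes. Proteasome genes called were 0 in the main fit and 0 to 3 with 1 library left out. Their median log2 fold change was -0.07. It was 0.0031 with no composition factors, where the median of all genes moved from 0.01 to 0.08 and the difference between both medians from -0.078 to -0.077, and -0.088 to -0.038 with 1 library left out. Of 25 proteasome genes named by rule, 19 kept their direction in every alternative. With no composition factors Psmd2 was at 0.040 and Psmd5 at 0.031. Psmc3 was at -0.0046 with no filter, where Ecpas was at -0.012, and Ecpas was at -0.0039 with upper-quartile factors. With 1 library left out, Psma6 ranged from -0.087 to 0.13, Psmc3 from -0.036 to 0.043, Psmd10 from -0.014 to 0.17, Psmd2 from -0.068 to 0.0047, Psmd5 from -0.14 to 0.043, Psmg4 from -0.35 to 0.55, Ecpas from -0.076 to 0.070, Mrtfb from -0.25 to 0.012 and Nfe2l1 from -0.055 to 0.077. The cause of these changes was not tested. The intervals of all 6 tested proteasome genes under 10 CPM reach past 1.5-fold, and the part of depth in this was not tested.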
